A study of Mus musculus with 6 samples.

Results

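Smooth muscle and peritubular myoid genes were described in whole testes of 4-day-old mice, with 3 Foxo1 null samples set against 3 of wild type. The set holds 36 genes, chosen by name for their part in the contractile apparatus of smooth muscle, with earlier results of these data known. It was read through every array probe that the platform's annotation assigns to one of them. There were 83 such probes among 45281 on the array. They covered 35 of the 36 genes, among 19057 that the array names by a single symbol; Cnn3, a calponin, had no named probe. All mice were of the FVB strain. The labels name no promoter or Cre line behind the null genotype. As background, mice without Foxo1 in any cell die as embryos, and the laboratory's published work on the testis deleted the gene in germ cells with a Cre driven by the Vasa promoter, so the muscle-like cells of such a testis would keep the gene. Each sample was hybridised to 1 Illumina bead array, and all 6 arrays lay on 1 slide. The labels do not say whether the 3 samples of a group came from separate animals, so the tests measure only the spread between these samples.

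Peritubular myoid cells are flat, smooth muscle-like cells that wrap the seminiferous cords. In the adult they contract to move fluid and sperm along the tubule, and with Sertoli cells they lay down the basement membrane on which spermatogonia rest. Smooth muscle contracts when calcium and calmodulin switch on a kinase that phosphorylates the regulatory light chain of myosin, which then pulls on actin filaments anchored in dense bodies. Serum response factor, bound to CArG boxes in DNA and helped by myocardin, switches on many genes of this apparatus. The same genes are used by the muscle coat of arteries, of the epididymal duct and of the tunica, so whole-testis RNA does not say which of these cells a transcript came from.

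Intensities are given on a log2 scale after background correction and quantile normalization, on which a difference of 1 is a doubling, and differences are null minus wild type. A probe was tested if it was detected, at a detection p-value under 0.05, on at least 3 of the 6 arrays. The arrays detected between 44.4% and 47.8% of all probes, and each tested probe of the set was read by 18 to 68 beads per array. Any pair of arrays correlated between 0.973 and 0.987 across tested probes. The targeted gene had 2 tested probes that differed in opposite directions. Foxo1 probe ILMN_2656498 lay between 5.83 and 6.69 on null arrays, against 8.07 to 8.19 on wild-type arrays, and Foxo1 probe ILMN_2509340 between 8.57 and 8.82 on null arrays, against 4.96 to 5.69 on wild-type arrays. Where these probes lie within the gene was not analysed here.

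The defining markers of smooth muscle were largely present. Acta2, Actg2, Myh11, Des, Tagln and Smtn each had a probe detected on all 6 arrays. The only probe of Cnn1, the calponin of differentiated smooth muscle, and both probes of Synpo2, an actin-bundling protein, were detected on no array, which says nothing of the transcripts beyond what these probes could read. In all, 33 of the 36 genes had a tested probe, and 55 of their 83 probes were tested. Of the tested probes 47 were detected on all 6 arrays. Of the 28 untested probes, 19 were detected on no array.

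Actg2, which encodes the gamma smooth muscle actin, had the largest difference of the set, 1.42 between the mean log2 values, or 2.67-fold higher in null. Tagln, Myh11, Tpm2, Des, Kcnmb1, Acta2 and Smtn had differences between 0.46 and 0.81 on the log2 scale. None of these passed the test over the whole array. Across the 55 tested probes, 0 passed an adjusted p-value under 0.05 in limma with Benjamini-Hochberg adjustment over all 20597 tested probes, of which 0.136% passed (0.00971% higher and 0.126% lower in null); the smallest adjusted p in the set was 0.218. At an unadjusted p-value under 0.05, 15 of the 55 probes, of 11 genes, were higher in null, where 4.03% of all tested probes were, and 0 were lower, where 4.75% of all tested probes were. The 3 null arrays lay above the 3 wild-type arrays at 15 of the 55 probes, against 6.23% of all tested probes, and below them at 0, against 7.73%. Probes of 1 gene are not independent, and a probe near background could pass the detection filter through the group in which it is brighter. These counts therefore describe the tested probes and not all members. The members were also chosen with earlier results of these data known, so their counts and medians are description and no support for a pattern. With 1 probe a gene, the tested probe with the highest mean, 8 of 33 members were higher at an unadjusted p-value under 0.05, against 4.26% of all 11145 tested genes, and 8 had null arrays above all wild-type arrays, against 6.81% of them. The median difference by gene was 0.21 over the 33 members and 0.011 over all tested genes. Scaling the arrays to a common median instead of quantile normalizing them gave 1582 of all tested probes higher and 493 lower at that unadjusted p-value, against 831 and 979; 21 of the 55 member probes were then higher, where 7.68% of all tested probes were, and 0 lower. Without null replicate 3, 3 of the 55 were higher, where 2.90% of all tested probes were, and 0 lower, and the median difference by gene was 0.089. Without background correction that median was 0.096.

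**Figure D1:**
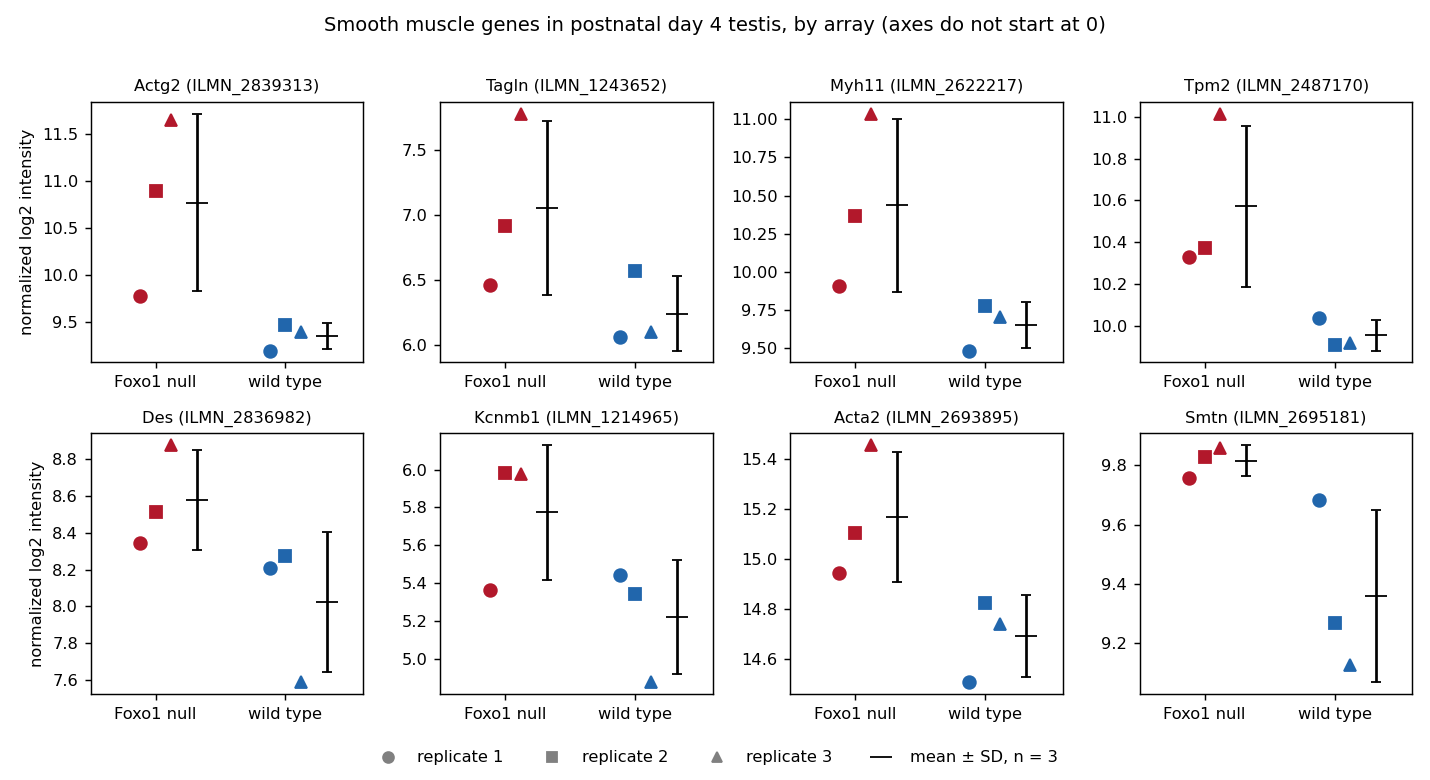
Normalized log2 intensity (vertical axes, which do not start at 0) of the 8 members whose highest-mean probe had an unadjusted p-value under 0.05, with Foxo1 null arrays left and wild-type arrays right of each panel; symbols are replicates, and the bar is the mean ± SD (n = 3). For Actg2 the null arrays lie between 9.77 and 11.65 and the wild-type arrays between 9.20 and 9.46; for Tagln and Kcnmb1 the groups overlap.

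Among the genes of the myosin motor, Myh11, the smooth muscle myosin heavy chain, read 9.91, 10.36 and 11.04 on null replicates 1, 2 and 3, against 9.48, 9.77 and 9.70 on wild-type replicates 1, 2 and 3. The groups did not overlap, and null replicate 3 stood highest. The difference was 0.78 (SE 0.27, n = 3 per group), with an adjusted p = 0.422 in limma. Myl9, the regulatory light chain that the kinase phosphorylates, read 12.06, 12.57 and 12.91 on the null arrays, against 11.91, 12.09 and 12.22 on the wild-type arrays. Here null replicate 1 lay below wild-type replicates 2 and 3, and the difference was 0.44 (SE 0.22). Myl6, an essential light chain found in most cells, had 2 tested probes at which all null arrays lay above all wild-type arrays, with differences of 0.31 (SE 0.15) and 0.37 (SE 0.17). At ILMN_2775660 it read 13.83, 14.03 and 14.23 on the null arrays, against 13.70, 13.76 and 13.72 on the wild-type arrays.

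The enzymes that switch myosin on and off had differences of 0.52 or less. Mylk, the myosin light chain kinase, had 3 tested probes with differences of 0.23, 0.43 and 0.52. Its brightest probe, ILMN_1218347, read 13.44, 13.25 and 13.76 on the null arrays, against 13.12, 13.45 and 13.19 on the wild-type arrays, with overlapping groups. At the other 2 Mylk probes the groups did not overlap; ILMN_1219471 read 11.70, 11.93 and 12.48 on the null arrays, against 11.55, 11.50 and 11.48 on the wild-type arrays. Ppp1r14a, an inhibitor of myosin phosphatase, had differences of 0.22 (SE 0.18) and 0.37 (SE 0.24), and Ppp1r12a, the subunit that targets this phosphatase to myosin, had differences of -0.02 (SE 0.21) and 0.33 (SE 0.24). The groups overlapped at all 4 of these probes. The adjusted p-values of the probes of the motor genes lay between 0.422 and 0.993 in limma.

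Both smooth muscle actins had higher means in the null samples. The caveat is that sequences of the probes were not used here. A reading of a near-identical actin by either gene's probes was not tested. Actg2 read 9.77, 10.89 and 11.65 on the null arrays, against 9.20, 9.46 and 9.40 on the wild-type arrays. The wild-type values lay close together (mean 9.35 ± 0.14, SD, n = 3) and the null values far apart (mean 10.77 ± 0.94, SD, n = 3), null replicate 1 being nearest to wild type. The difference was 1.42 (SE 0.40), with an adjusted p = 0.321 in limma. It passed only without null replicate 1, at 1.92 (adjusted p = 0.0325, limma), and the adjusted p lay between 0.0325 and 0.625 over all alternatives.

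Acta2, the alpha smooth muscle actin and the usual marker of myoid cells, was read by 4 tested probes out of 6. The brightest, ILMN_2693895, read 14.94, 15.10 and 15.45 on the null arrays, against 14.51, 14.83 and 14.74 on the wild-type arrays, and its groups did not overlap. Its difference was 0.48 (SE 0.18, adjusted p = 0.478 in limma), the smallest of the 4; the other Acta2 probes were at 0.64 (SE 0.28), 0.74 (SE 0.27) and 0.74 (SE 0.29). At ILMN_2710354 Acta2 read 12.27, 12.70 and 13.37 on the null arrays, against 11.90, 11.99 and 12.23 on the wild-type arrays, also without overlap. At ILMN_2923445 and ILMN_2710353 the groups overlapped. Null replicate 1 lay below wild-type replicate 3 at both, at 12.31 against 12.48 and at 11.61 against 11.78. Null replicate 3 was the highest of the 6 arrays at all 4 tested Acta2 probes. One further Acta2 probe, ILMN_1237242, was detected on 2 null arrays and 0 wild-type arrays and was not tested.

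Of the proteins that lie along the actin filament, Tpm2, the beta tropomyosin, read 10.33, 10.37 and 11.02 on the null arrays, against 10.04, 9.91 and 9.92 on the wild-type arrays, with no overlap, a difference of 0.62 (SE 0.20) and an adjusted p = 0.398 in limma. The more widely used tropomyosins were near 0. Tpm1 had differences of 0.0031 (SE 0.18) and 0.11 (SE 0.20), and the 3 tested Tpm4 probes lay between -0.02 and 0.10. Tagln, the actin-bundling protein SM22, read 6.46, 6.92 and 7.78 on the null arrays, against 6.06, 6.57 and 6.10 on the wild-type arrays. Null replicate 1 lay below wild-type replicate 2, and the difference was 0.81 (SE 0.32, adjusted p = 0.504 in limma). Tagln2, its relative in non-muscle cells, had the lowest difference of the set, -0.21 (SE 0.17): it read 10.49, 10.58 and 10.08 on the null arrays, against 10.55, 10.59 and 10.64 on the wild-type arrays.

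Cnn2, a calponin that is not restricted to smooth muscle, had the smallest adjusted p-value in the set at one probe and a difference near 0 at the other. At ILMN_2596369 it read 7.05, 7.25 and 7.52 on the null arrays, against 6.69, 6.54 and 6.28 on the wild-type arrays, with no overlap and a difference of 0.77 (SE 0.18, adjusted p = 0.218 in limma). At ILMN_1226666, the brighter Cnn2 probe, the values were 8.11, 7.90 and 8.02 on the null arrays and 8.01, 8.06 and 8.12 on the wild-type arrays, a difference of -0.05 (SE 0.14). Why the 2 probes disagree was not tested. Smtn, or smoothelin, a protein of contractile smooth muscle, read 9.76, 9.83 and 9.86 on the null arrays, against 9.68, 9.27 and 9.13 on the wild-type arrays, a difference of 0.46 (SE 0.18); here the wild-type arrays were the more spread. A second Smtn probe was at 0.42 (SE 0.17), also without overlap, and the remaining tested one, detected on 2 arrays of each group, at -0.05 (SE 0.33). Cald1, caldesmon, which restrains myosin on actin, had 4 tested probes between -0.05 and 0.22, and Lmod1, leiomodin, which starts actin filaments in smooth muscle, was at 0.32 (SE 0.18) with detection on 1 of 3 wild-type arrays. The groups overlapped at each of these Cald1 and Lmod1 probes.

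**Figure D2:**
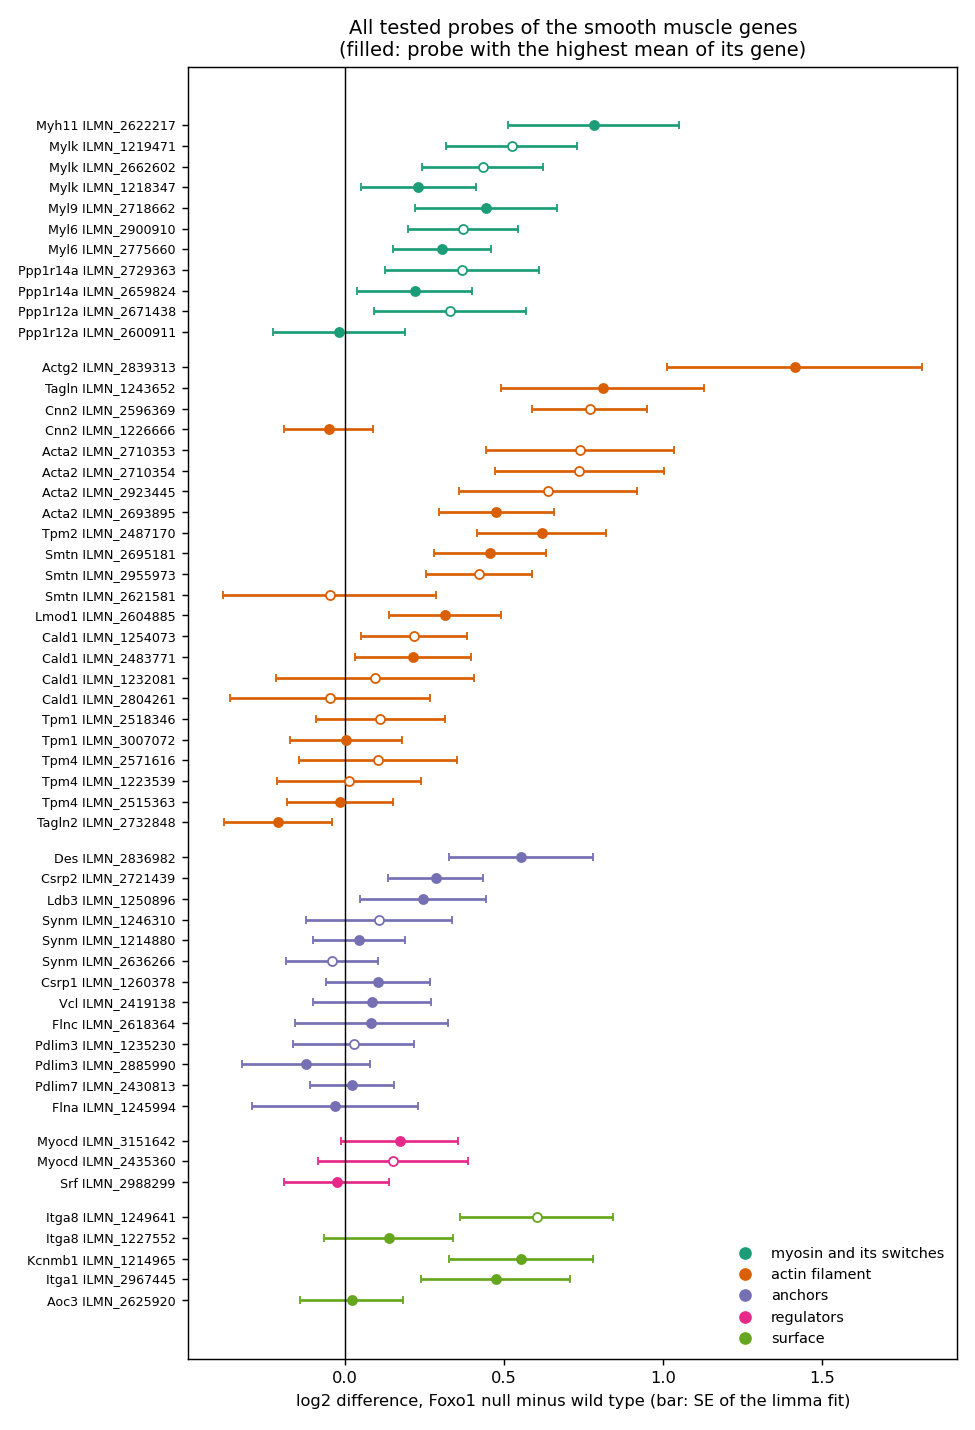
Log2 difference, Foxo1 null minus wild type (horizontal axis), of all 55 tested probes, grouped by role, with the SE of the limma fit as the bar (n = 3 per group); filled points are the probe with the highest mean of each gene. The probes run from -0.21 for Tagln2 to 1.42 for Actg2, with 45 above 0 and 10 below.

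Most genes that anchor the filaments had differences near 0. Des, or desmin, the intermediate filament of muscle, read 8.35, 8.51 and 8.88 on the null arrays, against 8.21, 8.28 and 7.59 on the wild-type arrays. The groups did not overlap, wild-type replicate 3 stood well below the rest, and the difference was 0.55 (SE 0.23, adjusted p = 0.531 in limma). Csrp2, a LIM protein of smooth muscle, was at 0.29 (SE 0.15), reading 11.89, 11.88 and 12.15 on the null arrays, against 11.80, 11.64 and 11.63 on the wild-type arrays, again without overlap. For the other anchors the groups overlapped. Vcl, or vinculin, of adhesion plaques, was at 0.08 (SE 0.18). Flna and Flnc, filamins that cross-link actin, were at -0.03 (SE 0.26) and 0.08 (SE 0.24), and Flna on null replicate 2, at 9.71, was the lowest of its 6 arrays. Synm, synemin, had 3 tested probes between -0.04 and 0.11. Pdlim3 and Pdlim7, PDZ and LIM adaptors of actin filaments, lay between -0.12 and 0.03, Csrp1 at 0.10 (SE 0.16), and Ldb3, a Z-disc adaptor of striated muscle with 6 probes of which 1 was tested, at 0.24 (SE 0.20). Over the 10 tested anchor genes the median difference was 0.08, against 0.27 for the 6 motor genes and 0.32 for the 11 tested genes of the actin filament. The last of these is the value of Lmod1, from a probe detected on 3 null arrays and 1 wild-type array.

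The regulators had differences near 0. Srf, serum response factor, read 10.34, 10.65 and 10.83 on the null arrays, against 10.67, 10.63 and 10.60 on the wild-type arrays, a difference of -0.03 (SE 0.17). Null replicate 1 was its lowest array and null replicate 3 its highest. Myocd, or myocardin, the cofactor that drives smooth muscle genes, had 2 tested probes out of 5, at 0.15 (SE 0.24) and 0.17 (SE 0.18), with overlapping groups. The adjusted p-values of these probes were between 0.879 and 0.985 in limma.

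CArG boxes were looked for in the promoter windows of RefSeq genes (GRCm38.p6), from 250 bases before to 50 after each start. A CArG box was taken as CC, then 6 letters that are each A or T, then GG, a pattern that reads the same on both strands. Windows were at hand for 30 members; the table held none for Actg2, Aoc3, Csrp2, Myh11, Myocd and Tagln. An exact box was found in 6 of the 30 members, Cnn2, Ldb3, Myl6, Myl9, Srf and Vcl (20.0%), and in 1.81% of the 27025 genes with a window. With 1 inner letter allowed to be C or G as well, 10 of the 30 members held a box (33.3%), against 11.3% of all genes. The FoxO core TGTTTAC, on either strand, was found in 1 member, Cald1 (3.33%), against 4.05% of all genes, and Cald1 held no CArG box with which it could overlap. Smooth muscle genes are known for these boxes, so the share says what kind of genes were chosen. Such a match is a description of letters and not a bound site, and the array did not measure binding.

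The 250 bases before the start are shown for Acta2 and Myl9, as actin and light chain of the contractile set, for Cnn2, whose probes disagreed, and for Srf, whose own promoter holds the boxes; capitals mark a CArG box, exact or with 1 inner letter changed. They lie at chr19:34255374-34255623 on the minus strand for Acta2, chr2:156775214-156775463 on the plus strand for Myl9, chr10:79988350-79988599 on the plus strand for Cnn2 and chr17:46556163-46556412 on the minus strand for Srf.
Acta2: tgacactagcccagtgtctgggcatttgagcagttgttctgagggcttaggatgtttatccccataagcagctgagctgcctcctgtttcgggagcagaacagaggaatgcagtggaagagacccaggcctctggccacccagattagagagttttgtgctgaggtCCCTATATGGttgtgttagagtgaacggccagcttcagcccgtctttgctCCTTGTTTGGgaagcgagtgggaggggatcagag
Myl9: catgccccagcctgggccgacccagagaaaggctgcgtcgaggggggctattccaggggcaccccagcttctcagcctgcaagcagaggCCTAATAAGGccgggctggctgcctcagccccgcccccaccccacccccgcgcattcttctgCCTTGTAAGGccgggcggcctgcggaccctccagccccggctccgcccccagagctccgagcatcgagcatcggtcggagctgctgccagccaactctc
Cnn2: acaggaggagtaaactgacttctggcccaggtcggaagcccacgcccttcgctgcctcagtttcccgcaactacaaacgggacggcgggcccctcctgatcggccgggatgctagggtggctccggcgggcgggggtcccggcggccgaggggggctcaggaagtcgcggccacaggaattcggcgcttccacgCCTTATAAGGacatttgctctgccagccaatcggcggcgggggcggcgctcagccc
Srf: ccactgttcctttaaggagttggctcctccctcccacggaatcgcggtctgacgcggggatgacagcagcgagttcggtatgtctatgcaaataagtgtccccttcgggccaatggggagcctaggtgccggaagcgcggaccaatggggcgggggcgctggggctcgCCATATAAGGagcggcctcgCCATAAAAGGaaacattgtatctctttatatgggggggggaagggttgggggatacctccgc
Acta2 held 2 boxes with 1 inner letter changed, beginning 84 and 34 bases before the start, and no exact one. Myl9 held an exact box 161 bases and a changed one 99 bases before the start. Cnn2 held 1 exact box, at 56 bases, and Srf held 2, at 82 and 62 bases. Acta2 and Myl9 were among the genes with positive differences, Srf lay at -0.03, and Cnn2 at either value according to the probe.

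On the cell surface, Kcnmb1, the beta subunit of the calcium-activated potassium channel that relaxes smooth muscle, read 5.36, 5.98 and 5.98 on the null arrays, against 5.44, 5.34 and 4.88 on the wild-type arrays. Null replicate 1 lay below wild-type replicate 1, the difference was 0.55 (SE 0.23), and the probe was detected on 2 of 3 wild-type arrays. Itga8, an integrin subunit of smooth muscle and myoid cells, was at 0.60 (SE 0.24) without overlap at one probe and at 0.14 (SE 0.20) with overlap at the other. The Itga8 probe at 0.60 was detected on 3 null and 2 wild-type arrays. Itga1, the alpha subunit of a collagen receptor, was at 0.47 (SE 0.24), from a probe detected on 2 null and 1 wild-type arrays. Aoc3, an amine oxidase of smooth muscle and vessels, was at 0.02 (SE 0.16) and read 10.64, 10.85 and 10.76 on the null arrays, against 10.77, 10.92 and 10.50 on the wild-type arrays. The adjusted p-values of the surface genes lay between 0.514 and 0.989 in limma.

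The values nearest to background depend on its correction. Without background correction the differences were 0.71 for Myh11, 1.29 for Actg2 and 0.47 for the brightest Acta2 probe, close to those given. They were smaller for the dim probes: 0.40 for Tagln, 0.39 for Cnn2 at ILMN_2596369, 0.17 for Kcnmb1 and 0.18 for Itga8 at ILMN_1249641.

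The members were also divided by general knowledge of how widely they are expressed. The division was made with earlier results of these data known, so its counts are description and no support for a pattern. Csrp2 was placed among the wide members, and Csrp1 and Ldb3 among the restricted ones. Of 19 tested members of restricted expression, 18 had positive differences, with a median of 0.32 and a range from -0.12 (Pdlim3) to 1.42 (Actg2). That median is the value of Lmod1, whose probe was detected on 3 null arrays and 1 wild-type array. Ldb3 was detected likewise, and Kcnmb1 on 3 null and 2 wild-type arrays. Without background correction Lmod1, Ldb3 and Kcnmb1 were at 0.097, 0.071 and 0.17. Of 14 tested members of wide expression, 8 had positive differences and 6 negative ones, with a median of 0.013 and a range from -0.21 (Tagln2) to 0.47 (Itga1). The Itga1 probe was detected on 2 null and 1 wild-type arrays and was at 0.14 without background correction. Myl6 (0.31), Csrp2 (0.29) and Mylk (0.23) were also on the positive side of this division, and dimmer probes of Cnn2 and Mylk reached 0.77 and 0.52. The ranges of the divisions overlap. Among all tested genes, 52.1% had positive differences. The difference between the 2 divisions was not tested.

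**Figure D3:**
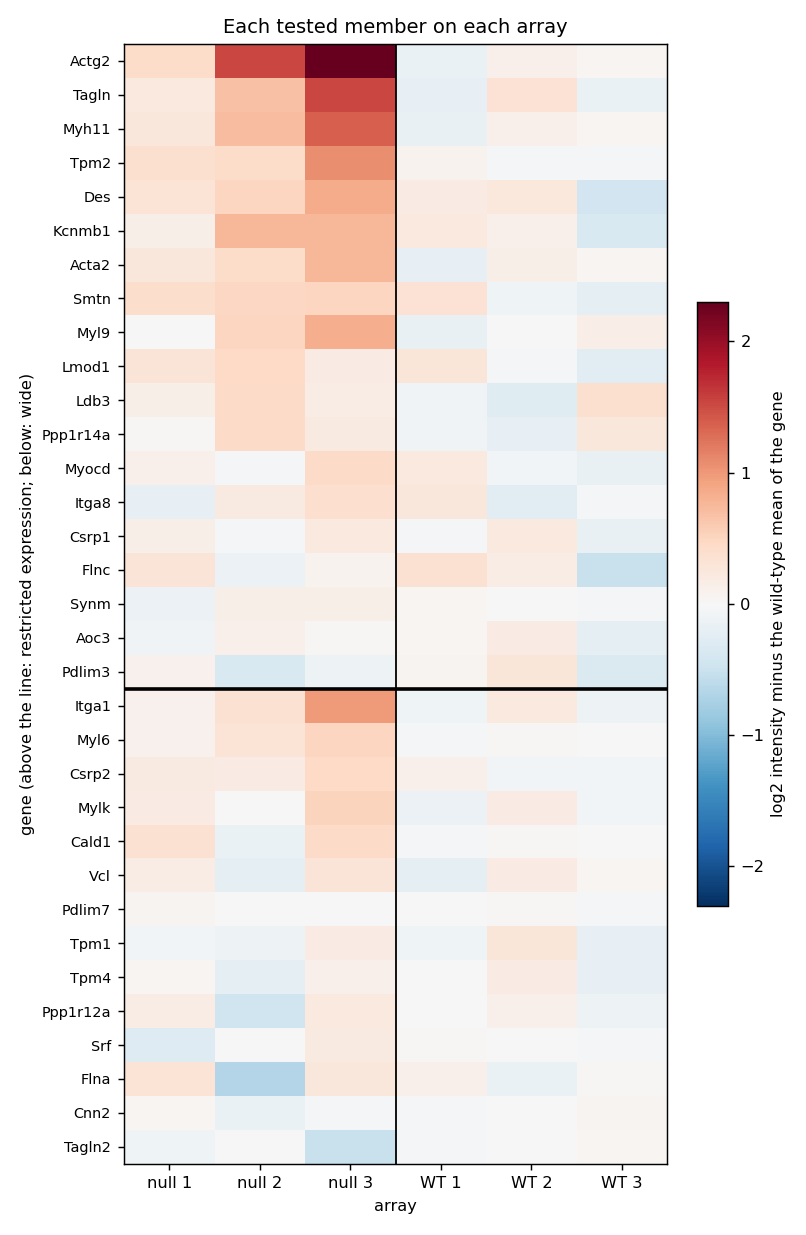
Log2 intensity of each of the 33 tested members (rows, 1 probe a gene) on each array (columns, null arrays left of wild-type arrays), as the distance from the gene's wild-type mean; genes above the black line have restricted and those below wide expression. The strongest colours are Actg2 on null replicates 2 and 3, and Tagln and Myh11 on null replicate 3. On null replicate 1 the members stand closer to wild type.

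The null arrays were not alike. Null replicate 3 was the highest of the 6 arrays for 19 of 33 members, where it was the highest for 15.0% of all tested genes; null replicate 2 was the highest for 5 and null replicate 1 for 2. The mean distance of the 19 members of restricted expression from their wild-type means was 0.16, 0.38 and 0.62 on null replicates 1, 2 and 3, against 0.054, 0.053 and -0.11 on wild-type replicates 1, 2 and 3. For the 14 members of wide expression it was 0.093, -0.082 and 0.26 on the null arrays, against -0.027, 0.074 and -0.047 on the wild-type arrays, with null replicate 2 below all 3 wild-type arrays. Without null replicate 3, beside the counts given above, Actg2, Myh11 and Tagln were at 0.98, 0.48 and 0.44. Null replicate 3 also detected the most probes (47.8%) and had the highest median scanner signal. That signal was 119.1, 134.6 and 141.1 on null replicates 1, 2 and 3, at slide positions 1, 4 and 5. On wild-type replicates 1, 2 and 3, at positions 2, 3 and 6, it was 116.2, 124.5 and 132.0. The part of signal level in the muscle values was not tested.

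Lists of genes of other cell types were read on the same arrays. In bulk samples, more cells of a type and more RNA per cell cannot be told apart. The duct epithelium list holds genes of the rete and of the epididymis, whose duct carries a muscle coat. Its scores (mean distance from wild-type means) were 0.54, 2.02 and 1.54 on null replicates 1 to 3 (wild-type arrays -0.45 to 0.39). All 7 of its tested genes of 12 had positive differences, with a median of 1.09, and 6 were higher at an unadjusted p-value under 0.05, where 4.26% of all tested genes were; 0 passed the adjusted threshold in limma. Cdh16, a kidney and duct cadherin, was at 2.47 (SE 0.61) and Krt19, a keratin of simple epithelia, at 1.49 (SE 0.43), while Pax2, Epcam and Emx2 were detected on no array. The duct list was highest on null replicate 2 and the restricted muscle genes on null replicate 3, and both were lowest, among the null arrays, on null replicate 1. Their part in the muscle values was not tested.

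The interstitial fibroblast list scored 0.35, 0.29 and 0.75 on the null arrays, where wild-type arrays lay between -0.11 and 0.22, so that null replicate 3 was again the highest. Of its 12 tested genes of 12, 11 had positive differences, with a median of 0.44; Lum, a matrix proteoglycan, was at 0.87 (SE 0.29) and Col3a1, a fibrillar collagen, at 0.52 (SE 0.20). Its part in the muscle values was not tested. The macrophage list scored 0.19, 0.60 and 0.59 on the null arrays, where wild-type arrays lay between -0.072 and 0.12, with C1qc, a complement component, at 0.86 (SE 0.19). The germ cell list lay at -0.82, -1.17 and -0.69 on the null arrays, where wild-type arrays lay between -0.29 and 0.47; all 11 tested genes of 14 had negative differences, among them Ddx4, an RNA helicase of germ cells, at -0.78 (SE 0.22). The part of either list in the muscle values was not tested.

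Vessel markers were mixed. Of 11 tested endothelial genes, 8 had positive differences (median 0.26), led by Emcn, endomucin, at 0.72 (SE 0.28). Of 7 tested pericyte genes 3 were positive and 4 negative (median -0.045): Rgs5, a regulator of G-protein signalling in pericytes, was at 0.44 (SE 0.18), and Mcam, an adhesion molecule of pericytes and endothelium, at -0.48 (SE 0.15). The skeletal muscle list had a median of -0.059 over 12 tested genes of 24. Its scores lay between -0.11 and 0.21 on null arrays and between -0.057 and 0.11 on wild-type arrays. Of its genes Actc1, Tnnc2, Ckm, Myod1, Neb and Casq1 were detected on no array. Tnnt1, the slow skeletal troponin T, was at 0.91 (SE 0.26) and Ryr1, the calcium release channel, at -0.62 (SE 0.18). The part of skeletal muscle or vessels in the smooth muscle values was not tested. Sertoli and Leydig lists had medians of 0.18 over 9 and -0.21 over 8 tested genes. Of the genes of these lists 0 passed the adjusted threshold.

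**Figure D4:**
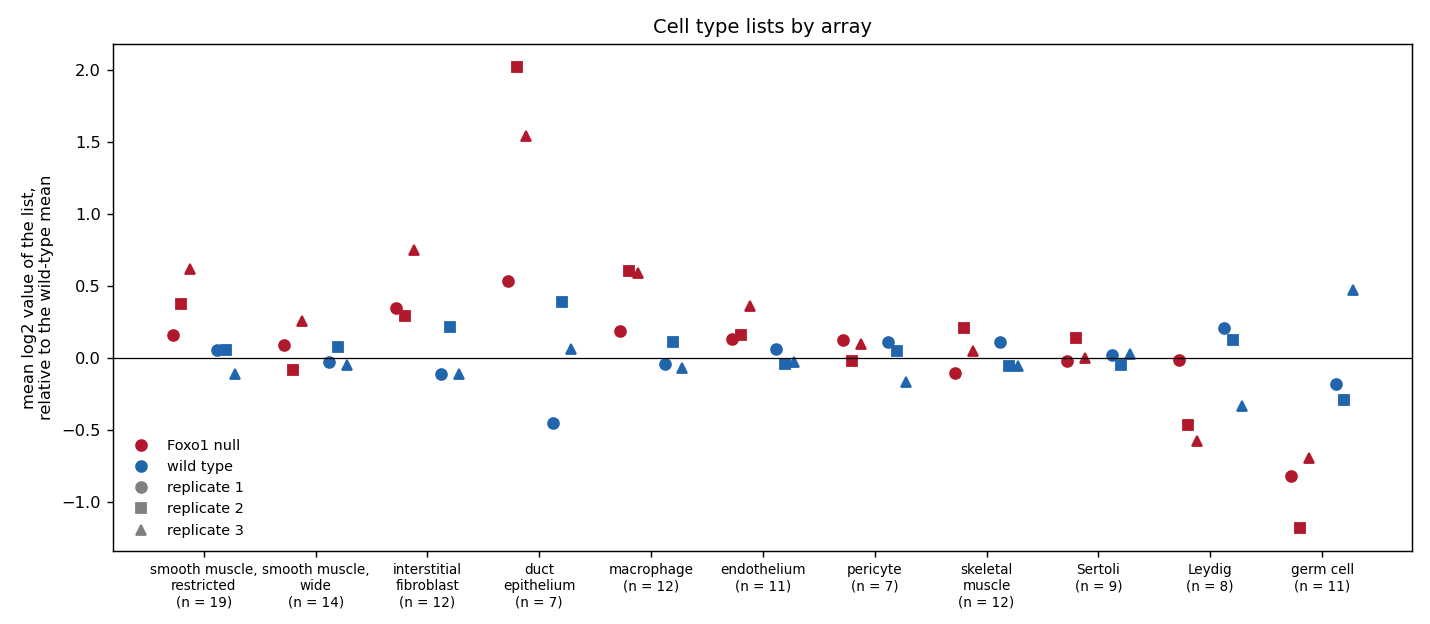
Mean log2 value of each gene list on each array relative to its wild-type mean (vertical axis), for null arrays (red, left of each pair) and wild-type arrays (blue, right). Symbols are replicates and n is the number of tested list entries. The restricted smooth muscle genes, fibroblast, duct and macrophage lists are highest on null replicates 2 or 3, and the germ cell list is lower on every null array than on any wild-type array.

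A further list, of smooth muscle and adhesion plaque genes outside the set, had 23 of 27 genes tested. Of these 21 had positive differences, as 52.1% of all tested genes did, with a median of 0.21. This list and the list of tension genes below were chosen with earlier results of these data known, so their counts are description. The genes named from each are the 4 with its smallest unadjusted p-values. At an unadjusted p-value under 0.05, 4 were higher, against 4.26% of all tested genes, and 0 lower; 0 passed the adjusted threshold in limma. Itga7, a laminin receptor subunit of muscle, read 6.09, 5.97 and 6.13 on the null arrays, against 5.21, 5.16 and 5.61 on the wild-type arrays, with no overlap and a difference of 0.74 (SE 0.17, adjusted p = 0.192 in limma). Pgm5, an adhesion plaque protein related to phosphoglucomutase, was at 1.07 (SE 0.39), Mustn1, a small nuclear protein of the musculoskeletal system, at 0.75 (SE 0.30) and Cryab, a small heat shock protein that protects desmin filaments, at 0.48 (SE 0.17).

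Of 24 genes that set the tension of smooth muscle, 13 were tested, 10 with positive differences (52.1% of all tested genes had one) and a median of 0.15. At an unadjusted p-value under 0.05, 4 were higher, again against 4.26% of all tested genes, and 0 lower; 0 passed the adjusted threshold in limma. Rgs2, which damps contractile G-protein signals, read 7.44, 7.66 and 8.10 on the null arrays, against 6.86, 7.14 and 7.01 on the wild-type arrays, a difference of 0.73 (SE 0.20, adjusted p = 0.281 in limma). Agtr1a, an angiotensin receptor, was at 0.74 (SE 0.20), Prkg1, the kinase through which cyclic GMP relaxes smooth muscle, at 0.72 (SE 0.28), and Ednrb, an endothelin receptor, at 0.57 (SE 0.20). The groups did not overlap for Rgs2, Agtr1a and Ednrb.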

How the data were processed

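Total RNA of 6 testes samples, 3 per genotype, was measured on Illumina bead arrays; per the labels' protocols it was isolated with Trizol and RNeasy kits and amplified to biotinylated cRNA. The submitters' processing notes name BeadStudio, with no version or settings; the genome build is not given in the sources used here. The deposited scanner table gives each probe a mean bead intensity, the beads behind it, their standard error and a detection p-value, per the file headers. Its intensity values were not normalized by the authors, and a second deposited table holds intensity values they normalized by an unstated method, on a linear scale and without background subtraction (column medians 130.6 to 130.7; each column ranked the probes as its scanner column did). All columns were mapped to samples.

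Scanner intensities were processed with limma 3.58.1 in R 4.3.3: neqc, which estimates background through the detection p-values and uses an offset of 16, quantile normalizes and takes log2. Probes detected (p under 0.05) on 3 or more arrays entered lmFit and eBayes without covariates, two-sided, with Benjamini-Hochberg adjustment over 20597 probes. The filter was set on all 6 arrays and kept when an array was left out. The number of arrays limits the precision, and near background the signal does too.

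Of all probes 34885 had 1 gene symbol in the platform's annotation, 18 several and 10378 none; those with several were left unnamed. List genes absent under their symbol were sought by Entrez number through the RefSeq gene table of GRCm38.p6. Promoter sequences are RefSeq's. A gene's value is that of its tested probe with the highest mean. The rule names all members and, in each of 13 other lists (209 entries, 153 of them tested), up to 4 tested genes with the smallest unadjusted p-value. A few of those are given. In the macrophage list the symbols Adgre1 and Emr1 led to the same probe, which the scores of that list therefore count 2 times. The members, the division by breadth of expression and the lists were chosen with earlier results of these data known. Whether the replicate numbers pair the samples could not be decided. Deviations of same-numbered arrays from their group means correlated at 0.16, -0.096 and 0.11. The same-numbered wild-type array was the best match for null replicates 1 and 3, and wild-type replicate 3 was for null replicate 2. Deviations from means of 3 arrays are tied to one another, which limits what such correlations can show.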

Additional observations from a re-analysis of the deposited data

How the results depend on the processing

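No member probe passed the adjusted threshold in limma under any of the 16 alternatives except 1 without null replicate 1 (Actg2), so leaving out an array gave 0 to 1; at an unadjusted p-value under 0.05, 3 to 21 probes were higher and 0 lower. The median difference of the members stayed positive. It was 0.096 without background correction, 0.12 with normexp and an offset of 50, and 0.094 with the authors' normalized values. Among probes detected on all 6 arrays it was 0.14, and with an array left out 0.089 to 0.25. Without the widely expressed members, a division made with earlier results known, it was 0.32. With median scaling it was 0.30, on a scale where the median of all probes was itself 0.12. The count of all called probes, 28, was 53 without background correction, 81 with normexp, 14 with median scaling, 2 without a filter on dim probes, 18 with detection on all 6 arrays, 103 with a trended and robust prior, 109 with array weights and 1 to 78 with an array left out. With the replicate number as a block it was 68, with 0 member probes called. Whether these numbers pair the samples is not known, so what this block accounts for is not known either. The cause was not tested for any of these. Of 872 single probe values under alternatives, 814 kept their sign; the 58 others were of probes at 0.15 or less. Fold sizes of probes near background are limited by signal.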

Other observations

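Partners and repressors of serum response factor, and signals of peritubular cells, had list medians of 0.087 and 0.079, with single genes on either side. Of 18 cofactor genes 13 were tested, 10 with positive differences; Mef2c, a MADS-box factor of muscle and vessels, read 10.33, 10.07 and 10.35 on the null arrays, against 9.97, 9.91 and 9.69 on the wild-type arrays, a difference of 0.39 (SE 0.16, n = 3 per group). Klf5, a zinc finger factor of smooth muscle, was at 0.28 (SE 0.17). Of 15 tested genes for signals and receptors of peritubular cells, 10 had positive differences, and 0 had an unadjusted p-value under 0.05 or passed the adjusted threshold in limma. Csf1, the macrophage growth factor, was at 0.57 (SE 0.32), Pdgfrb, a receptor of mesenchymal and mural cells, at 0.48 (SE 0.30), Tcf21, a factor of interstitial progenitors, at 0.17 (SE 0.14), and Fn1, fibronectin, at -0.50 (SE 0.28), with overlapping groups for all 4.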
